A study of Mus musculus with 4 samples.

Results

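The melanocyte lineage genes described here are Mitf, Sox10, Dct, Tyr, Tyrp1, Mlana, Kit and Ednrb, 8 genes listed by name for their known roles in pigment cells, among 12393 genes measured on the same arrays. Probe sets, the groups of short probes that each report on a transcript, were assigned to a gene by the platform's symbols. The arrays held 16 probe sets for 7 of the 8 genes. Mlana had none under its symbol and is not analysed here. The brightest probe set of a gene, by mean log2 signal over all arrays, stands for it, and its other probe sets are given beside it.

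Expression was measured on 4 Affymetrix mouse arrays with RNA of sorted back skin cells from mice at postnatal day 49. All mice carried a K14-GFP-actin transgene, in which a promoter of basal keratinocytes drives GFP fused to actin. The strain and coat colour are not given in the sources used here. The total epidermis group (2 arrays) held all living GFP-expressing cells, and the bulge basal group (2 arrays) held the living GFP-expressing cells that were high for both α6 integrin and CD34 at the surface, which selects for the basal layer of the follicle's bulge. The total group was not depleted of bulge cells. Both groups passed the same reporter gate, so a cell without keratin 14 promoter activity was not selected for in either. Transcripts of leukocyte marker genes were still measured in the total group, as given below with the other cell type markers. One label calls all 4 samples basal bulge stem cells, and the groups follow the titles instead. Nothing says that replicates came from separate animals, so the spread between them may be technical, and their number limits the precision.

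Melanocytes arise from the neural crest and settle in the hair follicle, where their stem cells lie among the keratinocytes of the bulge and the hair germ. MITF, a basic helix-loop-helix transcription factor, is the central regulator of the lineage and acts downstream of SOX10. It activates the genes of the pigment enzymes TYR, TYRP1 and DCT, which carry out melanin synthesis in the melanosome. DCT also marks immature melanoblasts and melanocyte stem cells. The receptors KIT and EDNRB receive KIT ligand and endothelins made by surrounding cells. Several of these genes have other users: Mitf and Kit are also active in mast cells, Mitf in some myeloid cells, Sox10 and Ednrb in Schwann cells and Ednrb in endothelium.

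The members did not share a direction between bulge and total cells. Mitf was 6.35-fold higher in the bulge group, while the pigment enzyme genes Dct and Tyrp1 were 2.33-fold and at least 2.58-fold lower. Sox10 was above background on both total arrays only, and just so. Kit exceeded background on 1 total array, and Tyr and Ednrb on none of the 4. None of the 7 genes passed the test. The values carry no detection flags, so a background level was set at a log2 signal of 7.23 (signal 150.0), the 95th percentile of 67 olfactory, vomeronasal and taste receptor genes. A group below it has only a bound, given as at least N-fold.

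In limma with Benjamini-Hochberg adjustment over all genes, 0 of 7 members and 0 of 12393 genes (0%) passed an adjusted p of 0.05. At an unadjusted p under 0.05, limma had 3 of the 7 members (Mitf, Dct and Tyrp1) and 1297 genes, or 10.5%. The limma fit with an intensity trend, which lets the expected spread depend on signal, called 0 of 7 members against 1.08% of all genes. Both bulge arrays lay above both total arrays for 1 member, Mitf, and for 18.0% of all genes. Both lay below for 5 members and for 20.5% of all genes, and the groups overlapped for Ednrb. The 5 lower members include Tyr and Kit, whose group means were below background in both groups. The median log2 difference was -0.48 over the 7 members and -0.02 over all genes. With 2 arrays per group an exact permutation test of a single gene could not give a two-sided p below 0.333.

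**Figure D1:**
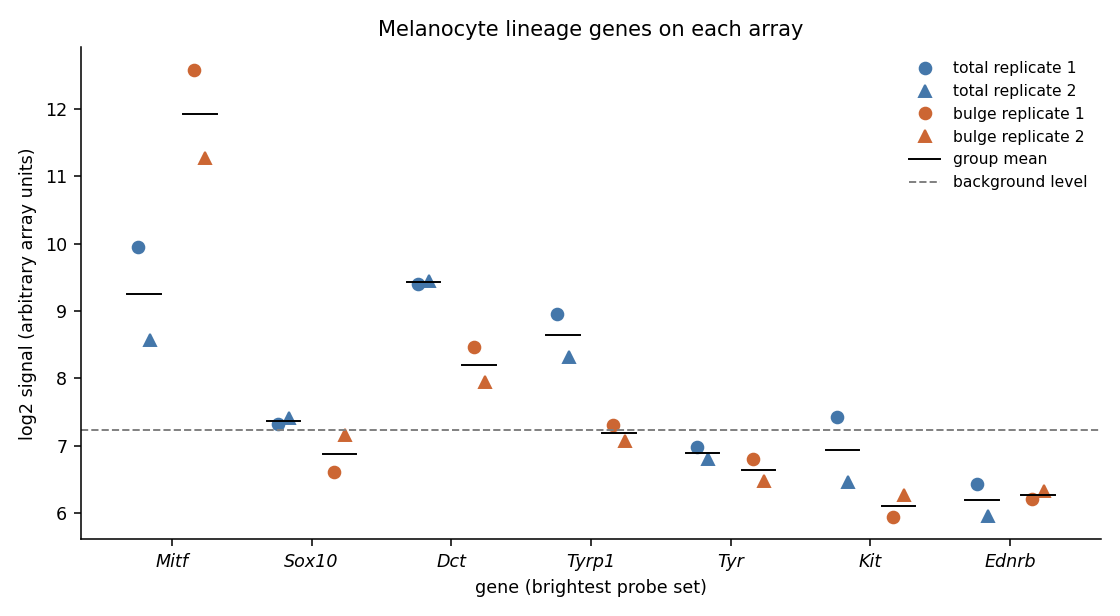
Log2 signal (y axis) of the brightest probe set of each of the 7 measured genes (x axis) on the 4 arrays, with circles for replicate 1, triangles for replicate 2, black bars for group means and a dashed line at the background level of 7.23. The bulge arrays lie above the total arrays for Mitf, below them for Dct and Tyrp1, and near or under the dashed line for the other genes.

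Mitf was the only member with a clear signal that was higher in bulge cells. Its signal was 985 and 379 in total cells, against 6125 and 2460 in bulge cells. Both bulge arrays exceeded both total arrays, and within each group replicate 1 was the higher. The mean log2 signals were 9.25 ± 0.98 (SD, n = 2) in total and 11.92 ± 0.93 (SD, n = 2) in bulge cells. The log2 difference was 2.67 (95% interval 0.91 to 4.43), with an adjusted p of 0.241 in limma and 0.140 in limma with the trend. Over the 19 other settings and left-out arrays it ranged from 1.98, without total replicate 2, to 3.36, without total replicate 1. Without bulge replicate 2 it was 3.33. With a term for the replicate number and the trend, Mitf passed (adjusted p 1.21e-04 in limma), as did Dct (0.0341) and Tyrp1 (0.0256). Nothing in the labels pairs the arrays by that number. A larger positive difference was found for 124 genes, of which 26 were among the 5781 genes above background on all 4 arrays.

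The other Mitf probe set, 1422025_at, was dimmer. It read 61.0 and 56.0 in total cells and 303 and 78.5 in bulge cells. Only bulge replicate 1 was above background, and the groups did not overlap. Its log2 difference, with every probe set tested on its own as for all secondary probe sets here, was 1.40 (95% interval -0.45 to 3.25). Both probe sets thus went the same way, and the larger value rests on the brighter of them. Mitf has several alternative starts that give forms with different first exons, and which of them the probe sets detect was not tested.

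Sox10, the transcription factor gene upstream of Mitf in the lineage, read 160 and 170 in total cells and 97.4 and 143 in bulge cells. The total arrays were barely above the background signal of 150.0 and the bulge arrays below it. The log2 difference was -0.48 (95% interval -1.51 to 0.54), and the bound on the fold was at least 1.10-fold lower. The other 2 Sox10 probe sets were below background on all 4 arrays and differed in sign, at 0.39 and -0.51. The values thus settle no direction for Sox10 to set beside that of Mitf. Neither gene passed in limma with or without the trend.

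Among the pigment enzyme genes, Dct was the most even between replicates of the total group. Dct encodes dopachrome tautomerase, and its signal was 678 and 697 in total and 353 and 247 in bulge cells. All 4 were above background and the groups were separate. The mean log2 signals were 9.43 ± 0.03 (SD, n = 2) and 8.21 ± 0.36 (SD, n = 2). The log2 difference was -1.22 (95% interval -2.23 to -0.21), with an adjusted p of 0.356 in limma and 0.232 with the trend. Dct has a single probe set here, and its difference stayed between -1.48 and -0.96 over 19 other settings.

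Tyrp1 encodes an enzyme that stabilises tyrosinase and contributes to dark melanin. It read 496 and 319 in total cells and 158 and 135 in bulge cells. Bulge replicate 1 was just above background and bulge replicate 2 below it. The log2 difference was -1.45 (95% interval -2.51 to -0.38), with an adjusted p of 0.292 in limma and 0.205 with the trend. The probe set name ends in _x_at, which marks probes that may also match other sequences. A second one without that mark, 1415861_at, had 450 and 238 in total and 118 and 53.7 in bulge cells, a log2 difference of -2.04 (95% interval -3.57 to -0.51). The remaining probe set, 1415862_at, was below background on all arrays and gave 0.28.

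Tyr, the gene of tyrosinase, which catalyses the rate-limiting step of melanin synthesis, was not above background. Its brightest probe set had 126 and 112 in total and 112 and 89.0 in bulge cells, a log2 difference of -0.25 (95% interval -1.22 to 0.72). The other 2 probe sets gave 0.21 and -0.54, likewise below background throughout. The data thus give a level for Dct in both groups, for Tyrp1 in total cells, and only an upper bound for Tyr.

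**Figure D2:**
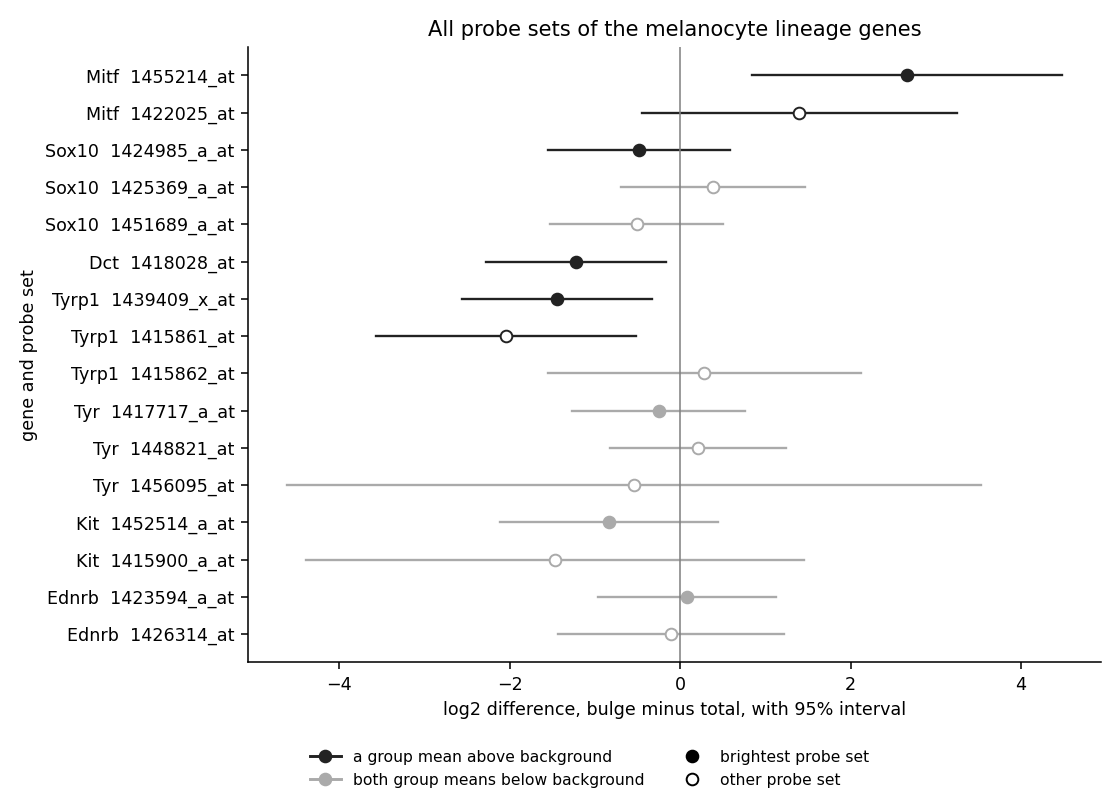
Log2 difference, bulge minus total, with its 95% interval from limma (x axis) for each of the 16 probe sets (y axis), fitted with every probe set tested on its own. Dark symbols mark probe sets with a group mean above background and filled symbols the brightest of each gene. The 2 Mitf probe sets lie to the right of 0, Dct and the 2 dark Tyrp1 ones to the left, and every grey interval crosses 0.

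The receptor genes were dim in both groups. Kit, the receptor for KIT ligand, read 172 and 88.0 in total cells and 61.6 and 77.5 in bulge cells. Only total replicate 1 exceeded background. The log2 difference was -0.83 (95% interval -2.06 to 0.39), and no fold is given because both group means were below background. Its other probe set was below background on all 4 arrays. Ednrb, the endothelin receptor gene, had 85.9 and 62.0 on the total and 74.1 and 80.0 on the bulge arrays, with overlapping groups and a log2 difference of 0.08 (95% interval -0.92 to 1.08). Its second probe set was also below background and gave -0.11.

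The stretches before the start sites of the pigment enzyme genes are shown because these genes are direct targets of MITF. Dct and Tyrp1 were lower in the group where Mitf was higher, and Tyr was not above background in either group. RefSeq windows of 250 bases before the start, on GRCm38.p6, were found for 6 of the 8 members (9 windows, 3 of them for Mitf and 2 for Kit). They were searched on both strands for CATGTG and CACGTG, the E-box forms that MITF binds, and for the longer CATGTGCT, which contains the first and was chosen after the windows were read. Capitals mark CATGTG or its reverse complement and, where present, the longer form. The Tyr window lies at chr7:87493513-87493762 on the minus strand, the Tyrp1 window at chr4:80833963-80834212 on the plus strand, the Dct window at chr14:118052247-118052496 on the minus strand, and the window of the most downstream Mitf start, that of the melanocyte form, at chr6:97991533-97991782 on the plus strand. All are printed 5′ to 3′ along the gene.
Tyr: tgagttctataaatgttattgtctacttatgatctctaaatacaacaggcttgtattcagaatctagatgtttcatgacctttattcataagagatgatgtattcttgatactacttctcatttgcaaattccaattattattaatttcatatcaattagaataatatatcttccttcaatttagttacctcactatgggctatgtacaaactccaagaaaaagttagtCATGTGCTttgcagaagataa
Tyrp1: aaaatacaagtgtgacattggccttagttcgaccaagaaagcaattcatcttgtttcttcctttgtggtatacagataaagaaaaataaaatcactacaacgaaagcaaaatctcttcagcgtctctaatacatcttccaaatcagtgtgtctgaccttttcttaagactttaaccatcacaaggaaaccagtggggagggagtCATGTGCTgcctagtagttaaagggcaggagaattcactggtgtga
Dct: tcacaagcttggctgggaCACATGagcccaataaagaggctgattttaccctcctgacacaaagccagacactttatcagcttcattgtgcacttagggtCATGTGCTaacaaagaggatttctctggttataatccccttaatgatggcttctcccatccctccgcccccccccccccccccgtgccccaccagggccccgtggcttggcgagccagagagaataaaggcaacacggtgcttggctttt
Mitf, most downstream start: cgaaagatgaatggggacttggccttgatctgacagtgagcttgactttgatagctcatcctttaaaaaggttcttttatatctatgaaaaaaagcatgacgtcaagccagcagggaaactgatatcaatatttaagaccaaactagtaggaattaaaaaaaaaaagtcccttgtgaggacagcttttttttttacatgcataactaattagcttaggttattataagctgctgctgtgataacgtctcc

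CATGTGCT was in the windows of all 3 pigment enzyme genes, beginning 21 bases before the start of Tyr, 46 before that of Tyrp1 and 150 before that of Dct. It was in 0.953% of 32851 windows of all genes. The Dct window held a further match to the shorter CATGTG 232 bases before the start, on the opposite strand. CATGTG was in 12.3% of all windows and in none of the windows of Mitf, Kit or Ednrb. CACGTG was in 6.02% of all windows and in none of the 9. A match describes the letters alone, and nothing here shows that it is bound. Tyr, with the same letters as Dct and Tyrp1, was the enzyme gene without a measurable level.

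**Figure D3:**
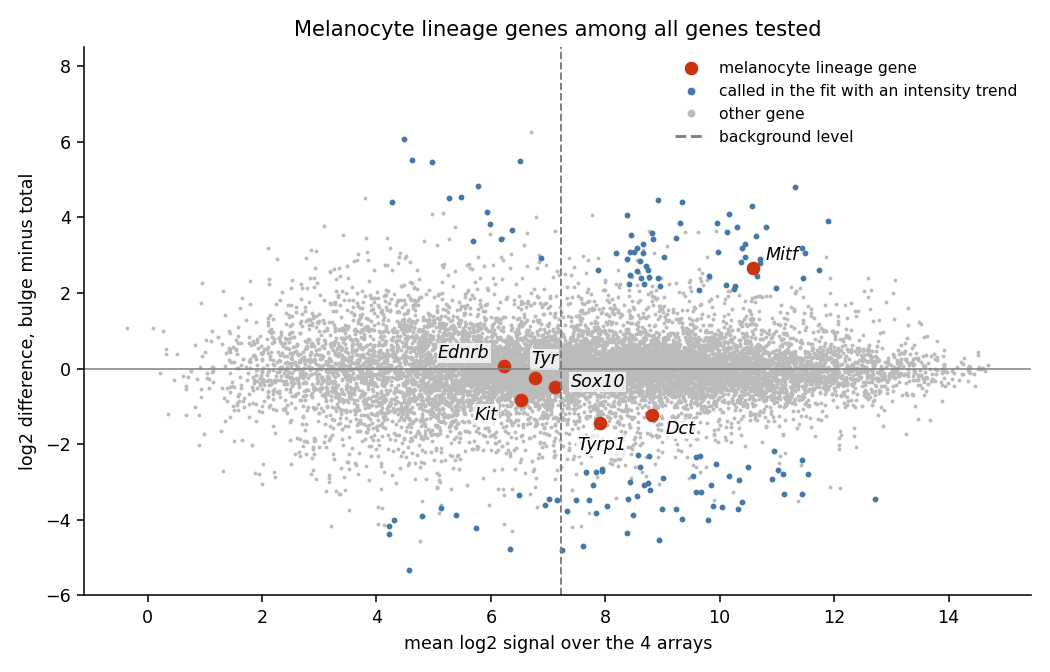
Log2 difference, bulge minus total (y axis), against the mean log2 signal over the 4 arrays (x axis) for 12393 genes, with the 7 members in red, genes called in the fit with an intensity trend in blue and the background level dashed. Mitf lies at 2.67 among the blue points of its signal range without being called, Dct and Tyrp1 lie at -1.22 and -1.45, and Sox10, Tyr, Kit and Ednrb lie left of the dashed line.

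Other pigment cell genes were mixed in direction and mostly dim. Of 18 listed genes, 14 were measured and 6 were above background on at least 1 array. None of the 14 was called in either fit, and 2 were higher and 5 lower without overlap (18.0% and 20.5% of all genes), with a median log2 difference of -0.33. The 2 higher genes but only 2 of the 5 lower ones had a group mean above background. Pmel, the gene of the fibril protein on which melanin is laid down, had log2 signals of 8.11 and 8.43 in total and 7.41 and 7.47 in bulge cells, which differed by -0.83 (95% interval -1.79 to 0.13). It thus lay on the side of Dct and Tyrp1. Gpnmb, a melanosomal and lysosomal glycoprotein gene also active in macrophages, had 7.91 and 8.19 against 9.89 and 9.01, a difference of 1.40 (95% interval 0.22 to 2.57) and an adjusted p of 0.364 in limma. Slc45a2, a melanosomal transporter gene, was below background on both total arrays and slightly above it on both bulge arrays, at least 1.13-fold higher, and its other probe set was below background on all 4. Rab38, which guides enzyme cargo to the melanosome, was well measured with a difference of -0.38, and Tspan10 had 0.16 with overlapping groups.

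Genes for melanosome biogenesis and transport that many cell types use had small differences. Of 20 listed, 15 were measured and 9 were above background on all 4 arrays, with 0 called in either fit and a median log2 difference of -0.03. The BLOC-1 subunit genes Bloc1s6 and Bloc1s5 and the AP-3 subunit gene Ap3d1 had differences of 0.32, 0.32 and 0.35. The copper transporter gene Atp7a had -0.54, the AP-3 subunit gene Ap3b1 -0.36 and the motor gene Myo5a, which carries melanosomes, -0.21. Single arrays moved these values: without 1 bulge array Bloc1s5 was 0.64 or 0.01 and Ap3d1 0.18 or 0.53, and Ap3b1 was -0.07 or -0.66 without 1 total array. Atp7a was -1.28 without bulge replicate 1 and 0.20 without bulge replicate 2, and Myo5a ran from -0.31 to -0.10 without 1 array. The second probe sets of Atp7a and Ap3b1, above background on all 4 arrays, gave -0.81 and -0.51, each lower without overlap. Those of Bloc1s6 and Myo5a were below background and gave 0.55 and -0.48.

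In the fits with and without the intensity trend, the only call among the pathway genes fell in the list of other regulators of the lineage, which are transcription factor genes apart from the survival gene Bcl2. Of 16 listed, 15 were measured, 6 were above background on all 4 arrays and 1 was called in the fit with an intensity trend (1.08% of all genes). That gene was Tfap2c, of the AP-2 family, which fell 7.68-fold from log2 signals of 11.85 and 11.76 to 8.49 and 9.24, with adjusted p-values of 0.0376 with the trend and 0.0982 without it in limma. Its other 2 probe sets gave -3.19 and -2.10. The trended fit made no calls at all without either total array. The related Tfap2a, an AP-2 gene needed in melanocytes and keratinocytes, had a difference of -0.70 and Tfap2b 1.07. Without bulge replicate 1 they were -1.20 and 1.56, and without bulge replicate 2 they were -0.19 and 0.57. Sox9, active in both bulge keratinocytes and melanoblasts, had 8.13 and 8.62 against 10.63 and 10.09, a difference of 1.99 (95% interval 0.90 to 3.08). Nfib, a factor that in bulge keratinocytes restrains neighbouring melanocyte stem cells, had 11.38 and 11.37 against 12.84 and 12.69, a difference of 1.39 (95% interval 0.46 to 2.32). Of its other 3 probe sets, 1 gave 1.60 without overlap, while the groups overlapped in those at 0.30 and -0.17. Neither Sox9 nor Nfib passed in either fit. Sox9 passed with the trend once bulge replicate 2 was left out (adjusted p 0.0283 in limma). Pax3, which activates Mitf together with SOX10, was below background on all 4 arrays.

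Genes for signals that act on melanocytes were tested because keratinocytes make several of them. Of 22 listed, 17 were measured, 8 were above background on at least 1 array and 0 were called in either fit, with a median log2 difference of -0.40. Kitl, the ligand gene of KIT, had log2 signals of 7.83 and 7.55 on the total and 9.43 and 9.47 on the bulge arrays, 3.38-fold higher with a difference of 1.76 (95% interval 0.81 to 2.71). Its adjusted p was 0.166 in limma and 0.0877 with the trend. Its probe sets disagreed: a second one above background on all 4 arrays, 1426152_a_at, gave -0.02 with overlapping groups. Another below background gave 0.89 without overlap, and the last gave 0.12. Edn1, Edn2 and Edn3, the endothelin genes, exceeded background on 1 array in all, bulge replicate 1 for Edn1. Ligand genes on the other side included Bmp4, at least 5.39-fold lower, Wnt5a, at least 1.80-fold lower, and Tgfb2, at least 2.24-fold lower, none of which passed in either fit. With the trend, Bmp4 passed without either bulge array (adjusted p 0.0098 and 0.0221 in limma) and Wnt5a without bulge replicate 1 (0.0348). The endothelin-processing protease gene Ece1 had a difference of -0.40 and Adam10, a protease that sheds surface proteins, -0.83.

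**Figure D4:**
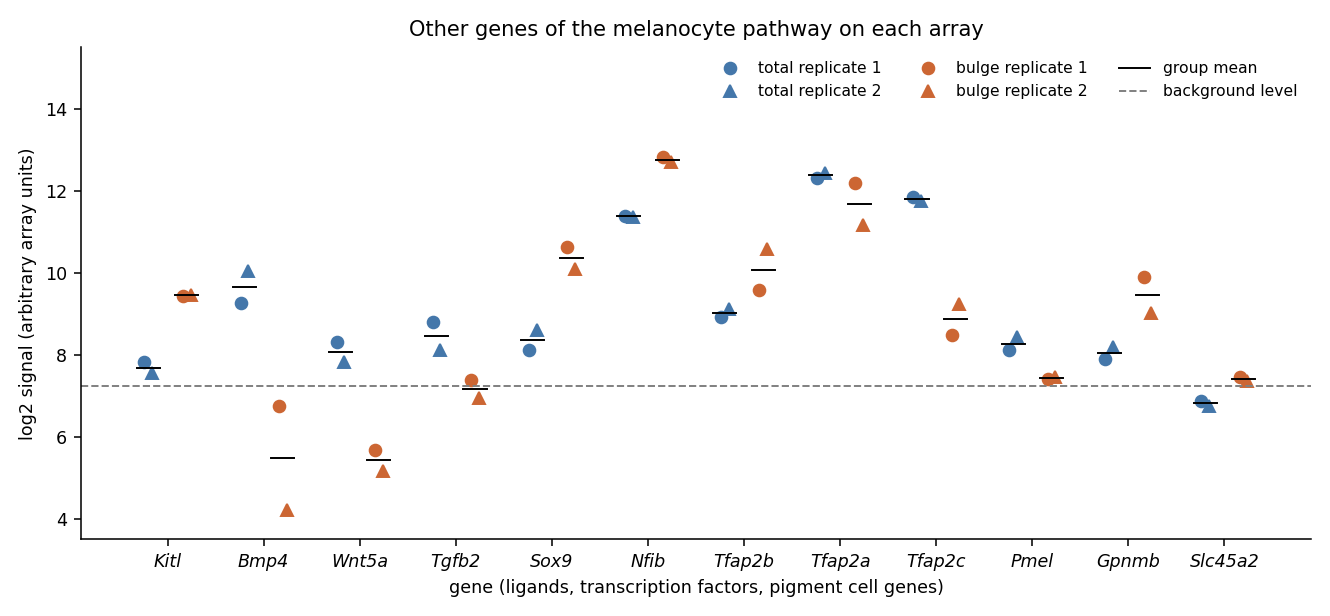
Log2 signal (y axis) on each array for 12 pathway genes (x axis), from left to right 4 ligands, 5 transcription factors and 3 pigment cell genes, with circles for replicate 1, triangles for replicate 2, bars for group means and the background level dashed. The bulge arrays lie above the total arrays for Kitl, Sox9, Nfib, Tfap2b, Gpnmb and Slc45a2 and below them for the other 6.

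Markers of the cells that could carry these transcripts were read on the same arrays. All 8 keratinocyte markers were above background on all arrays. Without overlap 4 were higher and 1 was lower (18.0% and 20.5% of all genes). The lower one was Itga6, the gene of the α6 integrin used for sorting, with log2 signals of 12.46 and 11.77 in total and 11.69 and 10.73 in bulge cells. Of 10 bulge markers, 9 were higher without overlap, against 18.0% of all genes, but that list was drawn up with these data known. It also holds Cd34, the gene of a surface protein used to sort the bulge group, so its rise was set by the sorting. Of 7 measured melanocyte markers besides the members, 2 were above background on any array, Pmel and Slc45a2, with log2 differences of -0.83 and 0.59. Each summed signal given here covers all measured markers of a list, also those below background. For these 7 markers it was 758 and 721 on the total and 637 and 467 on the bulge arrays. Of 11 mast cell markers besides Kit and Mitf, 2 were above background: Gata2 on all 4 arrays and Cpa3 on 1 total array. The sums over all 11, most of them below background, were 817 and 538 in total and 813 and 632 in bulge cells. The mast cell protease genes Cma1, Tpsb2, Tpsab1 and Mcpt4 were below background on all 4 arrays. Of 8 Langerhans cell and macrophage markers besides Mitf, 6 were above background. The summed signal of all 8 went from 12150 and 13287 down to 3936 and 3902. Without overlap 6 of the 8 were lower and 1 was higher (20.5% and 18.0% of all genes). The higher one was Epcam, a bright member of the list, with log2 signals of 11.20 and 10.90 in total and 11.46 and 11.21 in bulge cells. Of 6 measured Schwann and neural crest markers besides Sox10 and Ednrb, 4 were above background, with sums of 4273 and 3895 against 2204 and 1989. S100b and Foxd3 of that list were below background, while Erbb3 and Mbp, which epithelial cells or leukocytes can also express, were above it on all arrays with log2 differences of -0.99 and -1.23. Gfra3, also above it on all arrays, had 0.21 with overlapping groups, and Ngfr, above it on 1 total array, had -2.48. Endothelial markers besides Ednrb were above background for 1 of 8. The sums over all 8, most of them below background, were 596 and 391 against 524 and 457. Fibroblast markers were above background for 3 of 8, with sums of 1615 and 2009 against 4501 and 2068. In that list 1 marker was higher without overlap and 4 were lower (18.0% and 20.5% of all genes). The higher one was Col1a2, with log2 signals of 8.42 and 8.16 in total and 11.91 and 10.59 in bulge cells, and Thy1, also a T cell marker, went the other way, from 9.78 and 10.50 to 7.03 and 8.20. Col3a1, Pdgfra, Lum, Dcn and Dpt were below background on all arrays. All 7 measured T cell markers were lower without overlap, against 20.5% of all genes, and 5 of them had a group mean above background. Ptprc, for example, had log2 signals of 8.68 and 8.82 in total and 5.37 and 4.94 in bulge cells. Limma with the trend called 6 bulge markers higher, and 3 Langerhans cell and macrophage and 2 T cell markers lower (1.08% of all genes in either direction). It called none in the other marker lists, and limma without the trend called no marker. In such bulk samples fewer cells of a type and less RNA per cell cannot be told apart, and the part of these cell types in the values of Mitf, Dct and Tyrp1 was not tested.

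Genes above background on all 4 arrays were also ranked by how closely their log2 profile, centred on its mean, followed that of a member. For Mitf the nearest of 5780 were Ccdc71l, Farp1 and Hacd1, at Euclidean distances of 0.63, 0.77 and 0.77. For Dct they were Tnxb, Tspan5 and Pde4b, at 0.104, 0.104 and 0.132. For Tyrp1 they were Frmd6, Iqgap3 and Wdhd1, at 0.149, 0.161 and 0.213. For Sox10 they were Rassf5, Nif3l1 and Sar1b, at 0.0827, 0.0881 and 0.101. A profile of 4 values is easily matched: 206 genes correlated with Mitf above r = 0.95 over the 4 arrays, 238 with Dct, 202 with Tyrp1 and 174 with Sox10. The neighbours describe the shape of the profiles and nothing more.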

How the data were processed

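The authors deposited linear intensity values for 22690 probe sets, between 0.0546 and 40835. Every array had a mean of 500.0 after trimming 2% at each end, and medians ran from 124 to 145. The submitters' processing notes name RMA, affy 1.36, R 2.15.1 and GCOS without saying which of them made these values. The amplification started from 200 ng of RNA, per the labels' protocols. Symbols were updated by Entrez ID through RefSeq (GRCm38.p6) for 20351 of 20380 probe sets with 1 symbol. Of the rest, 64 were controls, 691 had several symbols and 1555 none, and these were left out.

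Log2 of the intensity was fitted with limma 3.58.1 in R 4.3.3 (lmFit and eBayes, group alone, two-sided), checked on simulated data. Members, lists and tests were chosen with earlier results of these data known. From the other lists, genes called with the trend, the 3 brightest and the 3 largest differences each way above background in 1 group were named. Genes outside that rule were named after their values were seen: Edn1, Edn2, Edn3, Pax3 and the cell type markers. Intervals are 95% and come from limma.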

Additional observations from a re-analysis of the deposited data

How the results depend on the processing

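Array centring and quantile normalization changed the log2 difference, bulge minus total, by a median of 0.0048 and 0.0137 over all genes. The count of called genes was 0 in limma, 134 with the intensity trend, 37 with log2 of signal plus 32, 5 with signals raised to background, and 222 and 202 among genes above background in 1 group without and with the trend. Without 1 array it ran from 0 to 388 (350 without bulge replicate 2 and 388 without bulge replicate 1, both with the trend), and members called from 0 to 1 (Mitf without bulge replicate 2, with the trend, adjusted p 0.0309 in limma). Same-numbered arrays deviated together (r = 0.627 over 5781 genes), but nothing in the labels pairs them. With the replicate block limma called 0 genes, and with the replicate block and trend 917 genes and 3 members: Mitf (adjusted p 1.21e-04), Dct (0.0341) and Tyrp1 (0.0256). That fit also called the pathway genes Bmp4 (8.77e-04), Tfap2c (1.03e-04), Sox9 (0.00217), Wnt5a (0.00224), Kitl (0.00429), Nfib (0.0162), Gpnmb (0.0288) and Tgfb2 (0.0451). Among genes above background in 1 group, Tfap2c (0.0233 without and 0.0261 with the trend in limma) and Wnt5a (0.0287 and 0.0404) passed. Wnt5a met that filter through the total group alone: its bulge arrays, at log2 signals of 5.69 and 5.16, were below background. Its p-values there are tied to the filter and carry no weight as a separate test. Adjusted p over all settings ran from 1.21e-04 to 0.730 for Mitf, 0.0341 to 0.958 for Dct and 0.0256 to 0.968 for Tyrp1. Their direction held in all 19 settings, as did that of Sox10. Other probe sets gave the opposite sign for Tyr (0.21), Tyrp1 (0.28), Sox10 (0.39), Ednrb (-0.11), Nfib (-0.17), Tfap2a (0.31), Adam10 (0.0523) and Kitl (-0.0163). With the mean of all probe sets Ednrb gave -0.0149. Without 1 array Ednrb ran from -0.16 to 0.31, Tspan10 from -0.16 to 0.47 and Atp7a from -1.28 to 0.20. The causes were not tested. Signals under background limit Tyr, Kit, Ednrb and Sox10.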
